A study of Mus musculus with 42 samples.

Results

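The genes described here are 8 enzymes of glycolysis (Hk1, Hk2, Pfkl, Pfkp, Aldoa, Pgk1, Pkm and Ldha), the kinase Pdk1 and the methyl-CpG binding protein Mbd2. They were selected by gene symbol, because microRNAs of stem cells are reported to raise glycolysis through Mbd2. All 10 have a row in both deposited count tables, among 18825 genes in experiment 1 and 19866 in experiment 2, and all 10 passed the filter on low counts in both. The data are RNA immunoprecipitation sequencing (RIP-seq) of mouse embryonic stem cells, in which RNA that comes down with a protein is sequenced beside the RNA of the lysate it came from (input). The protein was Tnrc6a carrying an HA-AVI tag, pulled down with anti-HA beads (IP). The 42 libraries form 14 groups of 3.

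All cells were of the 129S6/SvEvTac background, carried the GFP_5xT71BS reporter and a stable FLAG-Cas9::T2A::Blasticidin, and grew on gelatin in medium with serum and LIF. Untagged cells carried nothing further. Tagged cells carried HA-AVI-Tnrc6a, the cells called Trim71KO below carried HA-AVI-Tnrc6a and Trim71-/-, and those called Ago2KO carried HA-AVI-Tnrc6a and Ago2-/-. Experiment 1 comprised input and IP of untagged, tagged and Trim71KO cells (6 groups), and experiment 2 added input and IP of Ago2KO cells (8 groups). The labels do not say how many clones stand behind a genotype or whether the 3 libraries of a group came from separate cultures, so p-values measure the spread between these libraries, which may be technical. Levels are given in CPM (counts scaled to a common library total) and were normalized within an experiment, so levels are compared within an experiment and not across the pair.

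Glycolysis splits glucose into pyruvate. Hexokinases (Hk1, Hk2) trap glucose as its phosphate, phosphofructokinase (Pfkl, Pfkp) commits it to the pathway, Aldoa cleaves the sugar, Pgk1 and Pkm make ATP, and Ldha turns pyruvate into lactate. Pdk1 phosphorylates and switches off pyruvate dehydrogenase, which would otherwise feed pyruvate into the mitochondria. Mbd2 binds methylated DNA and represses transcription. MicroRNAs guide Argonaute proteins such as Ago2 to mRNAs, and Tnrc6a is the GW182 protein that Argonautes recruit to silence them. Trim71 is an RNA-binding repressor of stem cells. In mouse embryonic stem cells the miR-290 family is among the most abundant microRNAs.

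Printed first are 7 microRNAs of the miR-290 and miR-302 families whose bases 2 to 7 are AAGUGC, a part of the families and not all of them, since their seed defines which mRNAs they can pair with. Capitals mark bases 2 to 8, the seed, and the sequences are those of RefSeq (GRCm38.p6). In 5 of the 7 the seed is AAGUGCU:
mmu-miR-291a-3p: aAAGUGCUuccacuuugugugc
mmu-miR-294-3p: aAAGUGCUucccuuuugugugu
mmu-miR-295-3p: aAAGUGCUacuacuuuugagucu
mmu-miR-302b-3p: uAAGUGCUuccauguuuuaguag
mmu-miR-302d-3p: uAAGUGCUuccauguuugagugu
The other two differ from them at the last seed base:
mmu-miR-290a-3p: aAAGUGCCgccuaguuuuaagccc
mmu-miR-291b-3p: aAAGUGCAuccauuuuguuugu
The printed miR-290 family members lie on chromosome 7, from chr7:3218674-3218697 (miR-290a-3p) to chr7:3220815-3220837 (miR-295-3p), all on the + strand. The 2 printed miR-302 members lie on chromosome 3, at chr3:127545275-127545297 and chr3:127545665-127545687. MicroRNAs themselves were not measured in these libraries.

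Total counts ran from 12587257 to 23657840 per library in experiment 1 and from 16296447 to 21026552 in experiment 2, and every pair of libraries in a group differed by more than sampling noise. The tagged protein's own mRNA served as a check of the pull-down: Tnrc6a stood at 74.2 to 94.0 CPM in untagged IP and at 12945 to 31194 CPM in the IP libraries of all tagged cells. Ago2 fell in Ago2KO input, from 321 to 390 CPM in tagged cells to 158 to 167 CPM. Trim71 mRNA was not lower in input labelled Trim71KO (278 to 284 CPM against 227 to 265 in experiment 1), so RNA level does not check that label, and Trim71KO below means the libraries labelled so. All 10 embryonic stem cell markers looked for were measured, with a summed level of 7070 to 10096 CPM in input. Of 7 fibroblast markers, 2 (Col1a1 and Thy1) were measured, at a sum of 20.4 to 61.8 CPM, and the other genes of that list are not analysed here. The 4 neural markers summed to 80.4 to 109 CPM and 4 of 7 trophoblast markers (Tfap2c, Krt8, Krt18 and Hand1) to 61.9 to 144 CPM.

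Mbd2 mRNA was recovered with tagged Tnrc6a in both experiments. In experiment 1 the 3 tagged input libraries held 23.0, 23.7 and 23.4 CPM of Mbd2 and the 3 tagged IP libraries held 214, 162 and 182 CPM. The untagged control had 19.5, 21.0 and 21.7 CPM in input and 25.5, 31.5 and 27.5 CPM in IP. The lowest tagged IP library was thus far above each input and each untagged IP library. The fitted ratio of IP to input was 7.97-fold in tagged cells and 1.36-fold in untagged cells. In experiment 2 tagged input held 22.0, 18.2 and 20.1 CPM and tagged IP 98.3, 75.0 and 55.2 CPM. The untagged IP libraries of that experiment, at 21.2, 21.3 and 23.1 CPM, lay at the level of their inputs (20.5, 21.0 and 20.1 CPM). The ratio of IP to input was 3.78-fold in tagged and 1.07-fold in untagged cells.

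Enrichment was tested as an interaction in edgeR: how much larger, on the log2 scale, IP over input was in tagged than in untagged cells. For Mbd2 (ENSMUSG00000024513) it was 2.55 in experiment 1 (SE 0.16, adjusted p 1.76e-12) and 1.83 in experiment 2 (SE 0.21, adjusted p 1.14e-07). Here and below, adjusted p-values are from edgeR's quasi-likelihood test with Benjamini-Hochberg adjustment over all genes tested, and a gene is called changed at an adjusted p under 0.05. When each IP library was divided by each input library, all 9 ratios of tagged cells exceeded all 9 of untagged cells in both experiments.

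Pdk1 mRNA behaved the same way at a higher level. In experiment 1 Pdk1 (ENSMUSG00000006494, chr2:71873215-71903858 in GRCm38.p6) held 256, 281 and 271 CPM in tagged input and 1063, 903 and 1028 CPM in tagged IP, against 260, 224 and 236 CPM in untagged IP. In experiment 2 tagged input held 381, 367 and 347 CPM and tagged IP 909, 765 and 679 CPM, against 321, 336 and 329 CPM in untagged IP. Tagged IP libraries lay above all tagged input and all untagged libraries in both experiments. The interaction was 1.97 in experiment 1 (SE 0.13, adjusted p 6.52e-12) and 1.19 in experiment 2 (SE 0.12, adjusted p 6.49e-09).

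**Figure D1:**
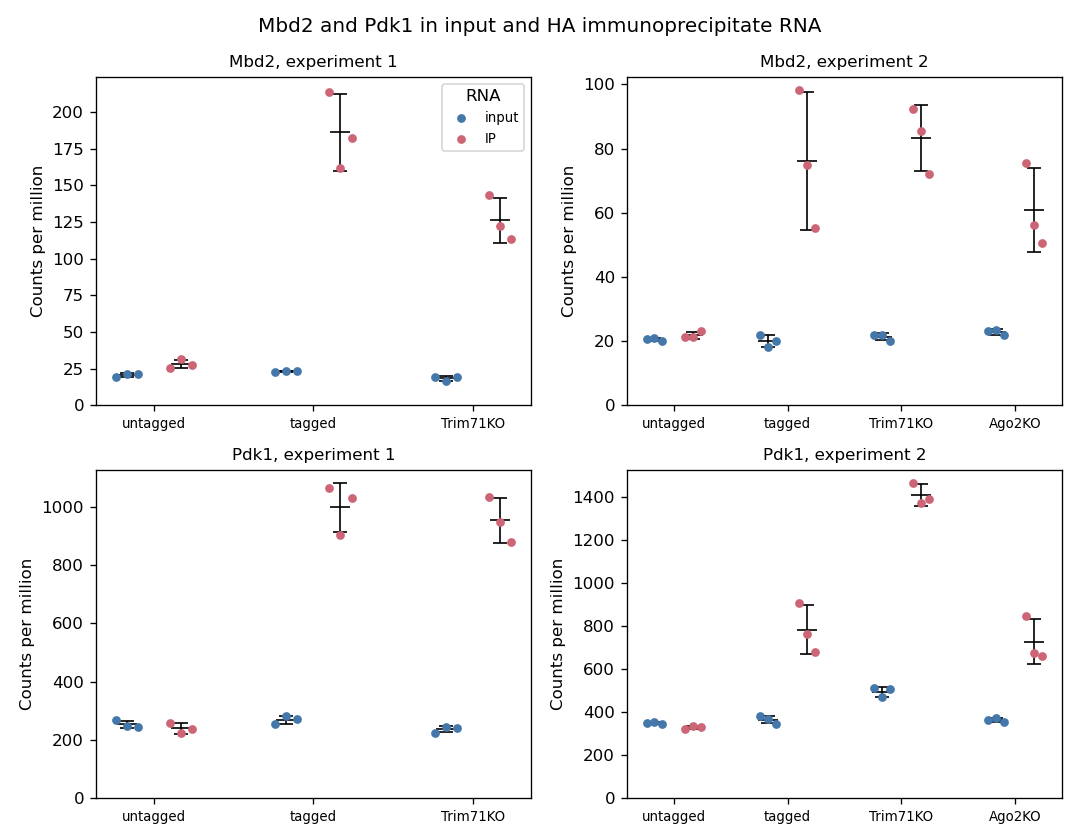
CPM of Mbd2 (top) and Pdk1 (bottom) in each library, by genotype, for input RNA (blue) and IP RNA (red); bars are the mean and SD of 3 libraries and the vertical axes start at 0. IP libraries of tagged, Trim71KO and Ago2KO cells lie above their inputs for both genes, while untagged IP libraries lie near theirs.

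None of the 8 glycolytic enzyme mRNAs was called higher with tagged Tnrc6a. In experiment 1, 7 of the 8 enzymes were called lower in the tagged pull-down than in the untagged one: Pkm by -1.26 (SE 0.19), Pfkl by -1.22 (SE 0.18), Ldha by -1.21 (SE 0.17), Pgk1 by -1.16 (SE 0.19), Hk2 by -0.96 (SE 0.19), Hk1 by -0.87 (SE 0.19) and Aldoa by -0.47 (SE 0.14), all on the log2 scale. The adjusted p-values from edgeR ran from 2.3e-06 for Ldha to 0.0067 for Aldoa. The eighth enzyme, Pfkp, had 0.06 (SE 0.15, adjusted p 0.77). Aldoa's call was lost without untagged input replicate 3 (adjusted p 0.054) and without untagged IP replicate 1 (adjusted p 0.054). Of all genes tested in experiment 1, 56.9% were called, 28.1% higher and 28.8% lower, so with a call in 9 of the 10 genes the set is read against a background where a call in either direction was common. The median over the 10 genes was -0.91 against -0.10 over all genes.

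Ldha shows the size of the drop in single libraries. Its tagged IP libraries of experiment 1 held 418, 542 and 539 CPM and its tagged inputs 955, 1018 and 1125 CPM. Untagged IP libraries held 1316, 1225 and 1105 CPM beside inputs of 1153, 1118 and 991 CPM. Tagged IP was the lowest of these 4 groups with no overlap. Pfkl and Hk1 differed in their controls. Untagged IP held 498, 527 and 419 CPM of Pfkl against 254, 247 and 226 CPM in untagged input, so the beads of untagged cells already yielded a 1.99-fold ratio, while tagged IP (151, 205 and 197 CPM) overlapped tagged input (199, 210 and 240 CPM). For Hk1, untagged IP held 62.6 to 82.2 CPM against 41.5 to 52.7 CPM in input, a 1.56-fold ratio. Its tagged IP (26.1 to 40.2 CPM) overlapped tagged input (37.4 to 41.1 CPM). Untagged IP of Hk2 (1.25-fold) and Pkm (1.22-fold) also lay above input without overlap, but their tagged IP lay below tagged input.

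In experiment 2 none of the 8 enzymes was called. Their interactions ran from -0.24 (Ldha, SE 0.09, adjusted p 0.062) and -0.22 (Pgk1, SE 0.10, adjusted p 0.11) to 0.08 (Pfkp, SE 0.12, adjusted p 0.66), and 2 of the 8 had an unadjusted p under 0.05. Of the 10 genes, 2 were called, Mbd2 and Pdk1, both higher. In this experiment 27.7% of all genes tested were called, 18.9% higher and 8.77% lower. With library sizes alone, without TMM factors, the median of all genes moved from -0.03 to -0.24, the calls over all genes split into 2861 higher and 4971 lower in place of 3745 and 1734, and Pgk1 (-0.42), Pkm (-0.36) and Ldha (-0.44) were called lower. Ldha was called lower in most other alternatives too. DESeq2 gave -0.26 (adjusted p 0.023) and edgeR with RLE size factors -0.26 (adjusted p 0.032). The other edgeR fits that called it were the filter on CPM, either replicate block and only the groups compared (-0.25 to -0.23, adjusted p 0.015 to 0.047). It was also called without tagged input replicate 1 or untagged IP replicate 2 (adjusted p 0.024 and 0.046). The median over the 10 genes was -0.02, against -0.03 over all genes.

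**Figure D2:**
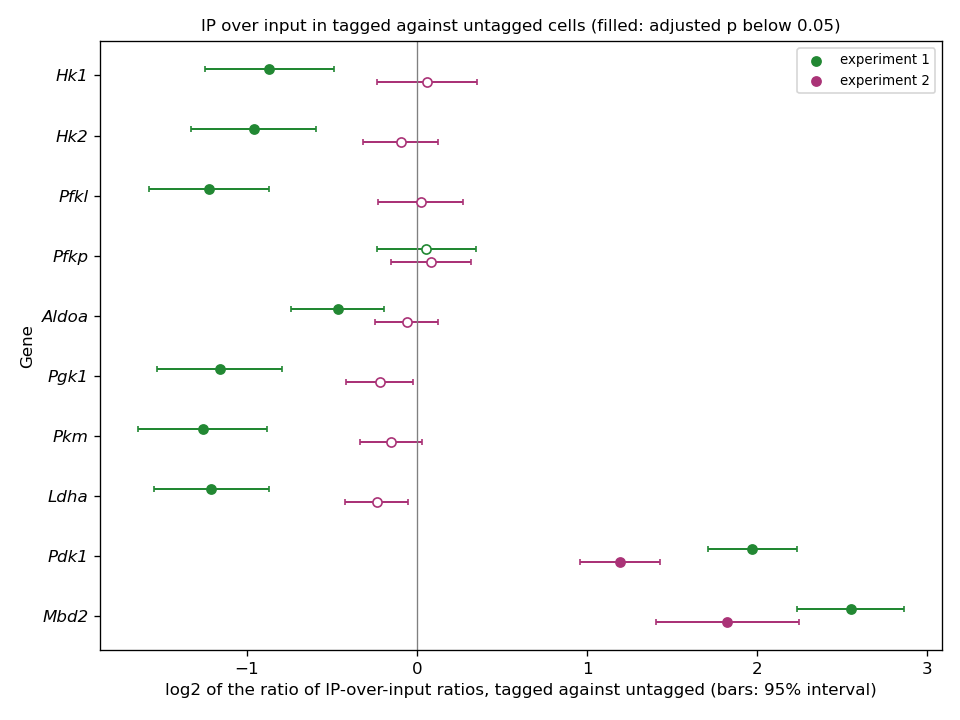
Difference between tagged and untagged cells in log2 IP over input for the 10 genes (points), with 95% intervals (bars), in experiment 1 (green) and experiment 2 (purple); filled points have an adjusted p below 0.05. Mbd2 and Pdk1 lie right of 0 in both experiments, and 7 enzymes have filled points left of 0 in experiment 1, where no enzyme has a filled point in experiment 2.

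The ordering of the 10 mRNAs by level per kilobase of gene length changed between input and pull-down. In tagged input of experiment 1, Aldoa (435 CPM per kilobase) and Pkm (420) overlapped at the top, followed by Ldha (312) and Pgk1 (159). Mbd2 (7.26) and Hk1 (4.64) were the lowest and did not overlap. In tagged IP of the same experiment Pdk1 reached 128 CPM per kilobase and overlapped Ldha (151), and Mbd2 reached 57.9 and overlapped Pgk1 (77.2). In experiment 2 the input order was Aldoa (795), Pkm (551), Ldha (527) and Pgk1 (348), with Hk1 (7.81) above Mbd2 (6.26) at the bottom. Tagged IP of experiment 2 kept these 4 enzymes on top, with Pdk1 next at 101 CPM per kilobase and Mbd2 ninth at 23.7.

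Other genes of the pathway were counted from lists written with earlier results of these data known. Counts of each list with the tag stand against the shares of all genes tested. These were 28.1% called higher and 28.8% lower in experiment 1, and 18.9% and 8.77% in experiment 2. Among other glycolysis enzymes and isozymes, 2 were called higher and 10 lower of 17 tested in experiment 1 (list median -0.83), and 0 higher and 2 lower of 18 tested in experiment 2 (list median -0.17). The largest falls with the tag in experiment 1 were those of the enolases Eno1 (-1.42, SE 0.21) and Eno1b (-1.42, SE 0.20), which are near-identical copies and whose counts are uncertain. In experiment 2 Eno1 had -0.18 (SE 0.11, adjusted p 0.23). How reads shared with processed pseudogenes were counted is not given in the sources used here, which leaves the levels of Aldoa, Pgk1, Pkm, Ldha and Gapdh uncertain in the same way.

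Around Pdk1, the list of enzymes that gate pyruvate entry had 4 of 10 called higher and 5 lower in experiment 1, and 4 higher and 2 lower in experiment 2. The kinase Pdk4 rose by 2.78 (SE 0.19) and 1.89 (SE 0.16) in the 2 experiments, and Pdp2, a phosphatase that reverses what the kinases do, by 2.18 (SE 0.17) and 1.53 (SE 0.14). The subunits Dld (-1.24, SE 0.14) and Pdhx (-1.09, SE 0.12) of pyruvate dehydrogenase fell in experiment 1. In the same list the genes called higher were thus regulators of the enzyme complex, together with Pdk2 and Pdk3, and those called lower were its subunits. Of 7 genes that control fructose bisphosphate, 3 were higher and 2 lower in experiment 1, and 2 higher in experiment 2. Pfkfb3, which makes the activator of phosphofructokinase, rose by 1.94 (SE 0.26) and 0.95 (SE 0.13).

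Among 9 listed transporters of sugar, pyruvate and lactate, 3 of 7 tested were called higher and 4 lower in experiment 1, and 2 of 8 tested were higher and 2 lower in experiment 2. Mpc1, a subunit of the mitochondrial pyruvate carrier, rose by 2.11 (SE 0.19) and 1.32 (SE 0.15), and the glucose transporter Slc2a3 fell by 0.77 (SE 0.16) and 0.48 (SE 0.16). Of 4 transcription factors that drive glycolysis genes, 1 was called higher and 3 lower in experiment 1, and 1 higher in experiment 2. Mycn was the one called higher in both, at 2.24 (SE 0.15) and 1.61 (SE 0.15). Those lower in experiment 1 were Myc (-0.81, SE 0.16), Hif1a (-0.52, SE 0.13) and Arnt (-0.40, SE 0.13).

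Mbd2 was not alone in its protein family. Of 7 other genes listed under the methyl-CpG binding family, 5 were called higher and 1 lower in experiment 1 (list median 2.00), and 5 were called higher in experiment 2 (list median 0.79). Of all genes tested, 28.1% were called higher in experiment 1 and 18.9% in experiment 2. Mbd6 rose by 2.76 (SE 0.16) and 1.54 (SE 0.11). Mbd3 had -0.43 (SE 0.12, adjusted p 0.0038) in experiment 1 and -0.22 (SE 0.11, adjusted p 0.14) in experiment 2. For scale, all 11 genes reported elsewhere as miR-290 family targets were called higher in experiment 1 (median 3.99) and all 10 tested in experiment 2 (median 2.56). These lists are no independent evidence of their direction. Cdkn1a, an inhibitor of the cell cycle, stood highest among them at 5.84 (SE 0.14) and 4.65 (SE 0.21), so the values of Mbd2 and Pdk1 lie below the medians of that list.

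The genes whose group means followed Mbd2 most closely over the 14 groups, centred within each experiment, were D030056L22Rik (Pearson's r 0.998), Traf3ip1 (0.997), Tmed2 (0.997), Thap12 (0.996) and Ddx52 (0.995), among 12445 genes ranked. For Pdk1 they were Zfp36l1 (0.995), Arrdc3 (0.993), Sphk2 (0.993), Bcl7b (0.992) and Uqcc1 (0.992). Mbd2 and Pdk1 followed each other with r = 0.960, a value that many genes exceeded. Pdk1 ranked 1255 among the genes following Mbd2, and Mbd2 ranked 607 among those following Pdk1. Such values are a description. The 14 points come from the same libraries for every gene.

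The knockouts ask whether recovery with Tnrc6a depended on Trim71 or on Ago2. None of the 10 genes was called for a change of enrichment between Trim71KO and tagged cells in either experiment, with 3 at an unadjusted p under 0.05 in experiment 1 and 1 in experiment 2 by edgeR, and DESeq2 called 0 in both. Over all genes, 3.74% were called in experiment 1 and 1.49% in experiment 2. Mbd2 in Trim71KO IP held 143, 122 and 113 CPM in experiment 1 and 92.3, 85.4 and 72.2 CPM in experiment 2. In experiment 1 these lay below tagged IP without overlap, and Trim71KO input (19.4, 16.6 and 19.1 CPM) lay below tagged input as well. The ratio of IP to input was 6.87-fold and the change of enrichment -0.21 (95% interval -0.52 to 0.09, adjusted p 0.57). In experiment 2 the ratio was 3.90-fold and the change 0.05 (95% interval -0.36 to 0.45, adjusted p 0.95).

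For the enzymes, calls in experiment 1 arose only on leaving out single libraries. All 8 had positive changes of enrichment in Trim71KO cells, from 0.02 (Pfkp) to 0.47 (Hk1, SE 0.19, adjusted p 0.24), without a call. The median over the 10 genes was 0.33 against -0.04 over all genes. Without Trim71KO IP replicate 1, 6 were called higher: Hk1 (0.63), Ldha (0.61), Pkm (0.55), Pfkl (0.55), Pgk1 (0.53) and Hk2 (0.52), with adjusted p-values between 0.012 and 0.043, while calls over all genes rose from 703 to 1435. That library had the lowest Trim71KO IP level of each of these 6. Tagged IP replicate 1 likewise had the lowest tagged IP level of each of these 6, and that fit kept it. For Pkm the 3 Trim71KO IP libraries held 1146, 1475 and 1799 CPM, and tagged IP held 840, 1215 and 1144 CPM. Leaving out tagged input replicate 1 called Aldoa alone (0.50, adjusted p 0.042). In experiment 2 the same 6 genes had values of -0.24 to -0.05, with no call.

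Pdk1 was the gene closest to a call in experiment 2. Its Trim71KO IP libraries held 1467, 1371 and 1389 CPM, above all tagged IP libraries, and its Trim71KO inputs 510, 469 and 507 CPM, above all tagged inputs. The ratio of IP to input was 2.84-fold in Trim71KO and 2.15-fold in tagged cells, a change of 0.40 (SE 0.12, adjusted p 0.087). Replicate numbers pair tagged and Trim71KO libraries in this experiment by the check described with the processing. With the replicate number as a block within each fraction the change was 0.41 (adjusted p 0.024) and with a block by culture 0.41 (adjusted p 0.023), so the call depends on the block. The block also moved the count over all genes from 295 to 470 and 522. The change was called too without tagged IP replicate 1 (0.51, adjusted p 0.011) and with library sizes alone (0.47, adjusted p 0.014). In experiment 1 it was 0.12 (SE 0.13, adjusted p 0.76).

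No gene of the 10 was called for a change of enrichment in Ago2KO cells, with 2 at an unadjusted p under 0.05 by edgeR, and DESeq2 called 0. Over all genes 4.16% were called. Mbd2 had the largest value. Its Ago2KO IP libraries held 75.7, 56.1 and 50.6 CPM, overlapping the tagged IP libraries, with inputs of 23.2, 23.5 and 21.9 CPM. The ratio of IP to input was 2.66-fold against 3.78-fold in tagged cells, a change of -0.51 (SE 0.21, adjusted p 0.24). The change was called without tagged IP replicate 3 (-0.73, adjusted p 0.011) and without Ago2KO IP replicate 1 (-0.69, adjusted p 0.028). Mbd2 levels fell from replicate 1 to 3 in IP of both tagged (98.3, 75.0 and 55.2 CPM) and Ago2KO cells. Each of these 2 fits left out an end of that order in 1 genotype alone. Neither replicate block called the change. Pdk1 had -0.10 (95% interval -0.33 to 0.13, adjusted p 0.83). From the lists, Mbd6 (-0.43, SE 0.11) and Pdp2 (-0.78, SE 0.13) were called lower, as were the reported miR-290 targets Ei24 (-1.28, SE 0.15) and Akt1 (-0.54, SE 0.14).

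Set against each other, the 2 knockouts differed in Pdk1. Enrichment was higher in Trim71KO than in Ago2KO cells by 0.50 (SE 0.12, adjusted p 0.0051), and all 9 ratios of Trim71KO cells (2.69 to 3.13-fold) exceeded all 9 of Ago2KO cells (1.78 to 2.40-fold). It was the only call among the 10, where 11.8% of all genes were called. Mbd2 had 0.55 (SE 0.21, adjusted p 0.082) and was called without Ago2KO IP replicate 1 (0.74, adjusted p 0.0086), with the replicate block within fraction (0.57, adjusted p 0.010) or by culture (0.57, adjusted p 0.016) and with only the groups compared (0.59, adjusted p 0.037). Both comparisons of a knockout with tagged cells share the tagged libraries. This direct test does not contrast them, though they enter its estimate of the spread.

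**Figure D3:**
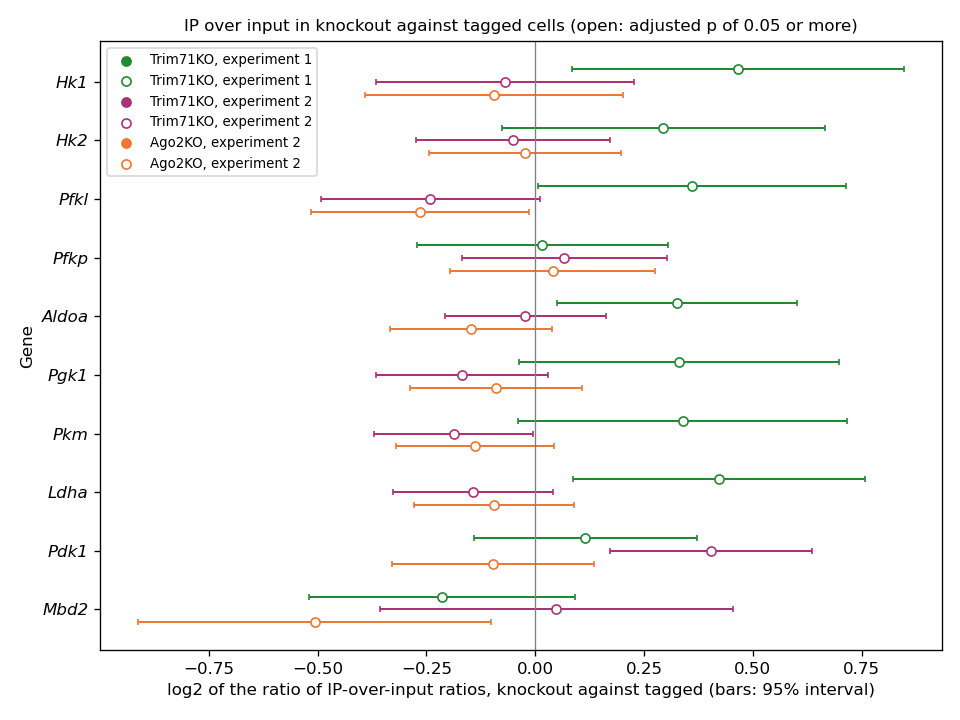
Difference between knockout and tagged cells in log2 IP over input for the 10 genes (points), with 95% intervals (bars), for Trim71KO in experiment 1 (green) and experiment 2 (purple) and Ago2KO in experiment 2 (orange). All points are open, since no adjusted p was below 0.05, and Mbd2 in Ago2KO cells lies furthest left at -0.51.

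Input RNA shows levels in the cells. In such bulk samples, fewer cells with the RNA and less RNA per cell cannot be told apart. Hk2 and Ldha were lower in Trim71KO than in tagged input in both experiments. Hk2 (ENSMUSG00000000628, chr6:82725025-82774454) is the inducible hexokinase. It held 139, 144 and 152 CPM in tagged input and 110, 116 and 112 CPM in Trim71KO input of experiment 1, and 230, 249 and 276 CPM against 128, 156 and 161 CPM in experiment 2. The groups did not overlap in either experiment. Untagged input of experiment 1 (185, 176 and 168 CPM) lay above tagged input, which the untagged input of experiment 2 (229, 234 and 228 CPM) did not. The log2 change was -0.37 in experiment 1 (SE 0.13, adjusted p 0.036) and -0.76 in experiment 2 (SE 0.08, adjusted p 6.01e-08). In experiment 1 the call was lost with library sizes alone (-0.32, adjusted p 0.069) and without tagged input replicate 2 or 3 or any single Trim71KO input library (adjusted p 0.053 to 0.076), while in experiment 2 it held in each such fit.

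Ldha (ENSMUSG00000063229, chr7:46842274-46855627) held 955, 1018 and 1125 CPM in tagged and 745, 712 and 669 CPM in Trim71KO input of experiment 1, and 1628, 1785 and 1816 CPM against 1449, 1470 and 1454 CPM in experiment 2. Trim71KO inputs lay below tagged inputs without overlap both times. The change was -0.54 (SE 0.12, adjusted p 0.0014) and -0.26 (SE 0.07, adjusted p 0.0046).

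The promoters of these 2 genes, the members that fell in both experiments, are shown with the matches to ACGTG, the core that Hif1a with Arnt recognises, also the inner part of the Myc site CACGTG. Capitals mark ACGTG and, on the other strand, CACGT, with overlapping matches joined. The windows of 300 bases span the start of transcription, from RefSeq (GRCm38.p6), Hk2 at chr6:82774405-82774704 on the - strand and the first listed start of Ldha at chr7:46845554-46845853 on the + strand:
Hk2: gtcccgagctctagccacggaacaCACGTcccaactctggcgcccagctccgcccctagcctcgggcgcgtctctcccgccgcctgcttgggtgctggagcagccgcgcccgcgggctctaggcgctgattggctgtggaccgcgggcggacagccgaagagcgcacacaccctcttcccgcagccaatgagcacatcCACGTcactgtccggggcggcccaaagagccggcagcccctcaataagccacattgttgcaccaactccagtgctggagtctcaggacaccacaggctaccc
Ldha: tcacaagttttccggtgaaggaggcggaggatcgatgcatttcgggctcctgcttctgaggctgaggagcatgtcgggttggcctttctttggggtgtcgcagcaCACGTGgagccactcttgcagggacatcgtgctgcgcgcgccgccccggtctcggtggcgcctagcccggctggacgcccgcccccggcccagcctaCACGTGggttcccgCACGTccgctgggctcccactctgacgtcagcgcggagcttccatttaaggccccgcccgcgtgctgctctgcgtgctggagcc
The Hk2 window holds 2 matches and the Ldha window 5, counted on both strands, of which 2 pairs of Ldha form CACGTG. Of 32851 such windows of all genes 19.6% hold ACGTG and 7.15% hold CACGTG on either strand. Of the 15 windows listed for 9 of the genes, 7 hold ACGTG, and these belong to 6 genes (Hk2, Ldha, Aldoa, Pkm, Hk1 and Pgk1). Some windows of a gene overlap. These matches are a description of letters. Of the 4 listed factors, 1 was called higher and 1 lower in Trim71KO input of experiment 1, and 2 higher in experiment 2. In these comparisons 34.0% and 27.2% of all genes were called in either direction. Arnt rose in experiment 1 (0.32, SE 0.09, adjusted p 0.0078) and had 0.11 (SE 0.07, adjusted p 0.22) in experiment 2, while Hif1a had -0.21 (SE 0.09, adjusted p 0.090) and 0.16 (SE 0.12, adjusted p 0.33). Myc had -0.35 in experiment 1 (SE 0.12, adjusted p 0.022) and 1.00 in experiment 2 (SE 0.16), and Mycn 0.41 in experiment 2 (SE 0.10, adjusted p 0.0037).

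The other changes in Trim71KO input were called in 1 experiment each. In experiment 1, Pfkp rose by 0.62 (SE 0.10, adjusted p 8.14e-05), from 235, 212 and 244 CPM to 342, 356 and 365 CPM. Hk1, the constitutive hexokinase, rose by 0.48 (SE 0.14, adjusted p 0.0088), from 37.4, 40.4 and 41.1 CPM to 51.9, 57.2 and 56.5 CPM. Untagged inputs lay between these for Pfkp (252 to 313 CPM) and overlapped Trim71KO inputs for Hk1 (41.5 to 52.7 CPM). In experiment 2 Pfkp had 0.06 (SE 0.09, adjusted p 0.67) and Hk1 0.08 (SE 0.11, adjusted p 0.62). Mbd2 had -0.35 in experiment 1 (SE 0.12, adjusted p 0.024), a call lost without tagged input replicate 2 or 3 or Trim71KO input replicate 2 (adjusted p 0.052 to 0.12), and 0.08 in experiment 2 (SE 0.15, adjusted p 0.74). Pdk1 rose in experiment 2 by 0.44 (SE 0.08, adjusted p 0.00025), while in experiment 1 it had -0.18 (SE 0.09, adjusted p 0.14), with Trim71KO inputs at 225, 246 and 240 CPM all below tagged ones.

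In all, 5 of the 10 genes were called in Trim71KO input of experiment 1 and 3 in experiment 2, where 34.0% and 27.2% of all genes were called. Markers of some other cell types moved with the same comparison. The summed level of 8 primitive endoderm markers was 66.5 to 89.3 CPM in tagged and 12.9 to 15.4 CPM in Trim71KO input of experiment 1, and that of the 7 measured in experiment 2 was 22.9 to 25.3 and 8.80 to 10.7 CPM. The 10 stem cell markers summed to 7308 to 8030 and 8648 to 8911 CPM in experiment 1, and to 8880 to 9011 and 10016 to 10096 CPM in experiment 2. The 2 measured fibroblast markers, Col1a1 and Thy1, went from 22.6 to 24.5 to a range of 58.0 to 61.8 CPM in experiment 1 and from 34.2 to 35.8 to a range of 49.5 to 51.9 CPM in experiment 2. Col1a1 reached at most 4.58 CPM in input of experiment 1 and 5.34 CPM in experiment 2, so most of that sum was Thy1. Neural sums overlapped, at 87.5 to 101 CPM in tagged and 87.3 to 103 in Trim71KO input of experiment 1. In experiment 2 they were 81.1 to 89.5 and 80.4 to 93.7 CPM. Trophoblast sums overlapped in experiment 1 (61.9 to 68.0 and 64.6 to 68.5 CPM). They were lower in Trim71KO input of experiment 2 (77.1 to 84.8 against 89.6 to 105 CPM), where most of each sum was Tfap2c. The part of these markers in the results was not tested.

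Hexokinase isozymes had another mix in Trim71KO input. Per kilobase, Hk1 made up 16.0% ± 0.338 (SD, n = 3) of hexokinase 1 and 2 mRNA in tagged input and 25.5% ± 0.583 in Trim71KO input of experiment 1. In experiment 2 it made up 15.6% ± 0.609 and 24.9% ± 1.52, with 15.3% ± 1.02 in Ago2KO input. Trim71KO libraries were the highest in both experiments (untagged 15.7% ± 1.41 and 18.4% ± 0.284), and a two-sided exact permutation test gave p = 0.10 each time, the smallest 3 against 3 libraries allow. Pfkl made up 65.3% ± 2.02 of Pfkl and Pfkp in tagged and 52.3% ± 1.44 in Trim71KO input of experiment 1 (exact permutation p = 0.10), and 51.2% ± 1.52 and 51.2% ± 2.79 in experiment 2 (exact permutation p = 1.0). Tagged against untagged input of experiment 2 reached the same exact permutation p = 0.10 for the Hk1 share (-2.78 percentage points) and the Pfkl share (-2.61), though not in experiment 1. Over the 12 comparisons of shares that were made, none can pass a correction at this size.

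**Figure D4:**
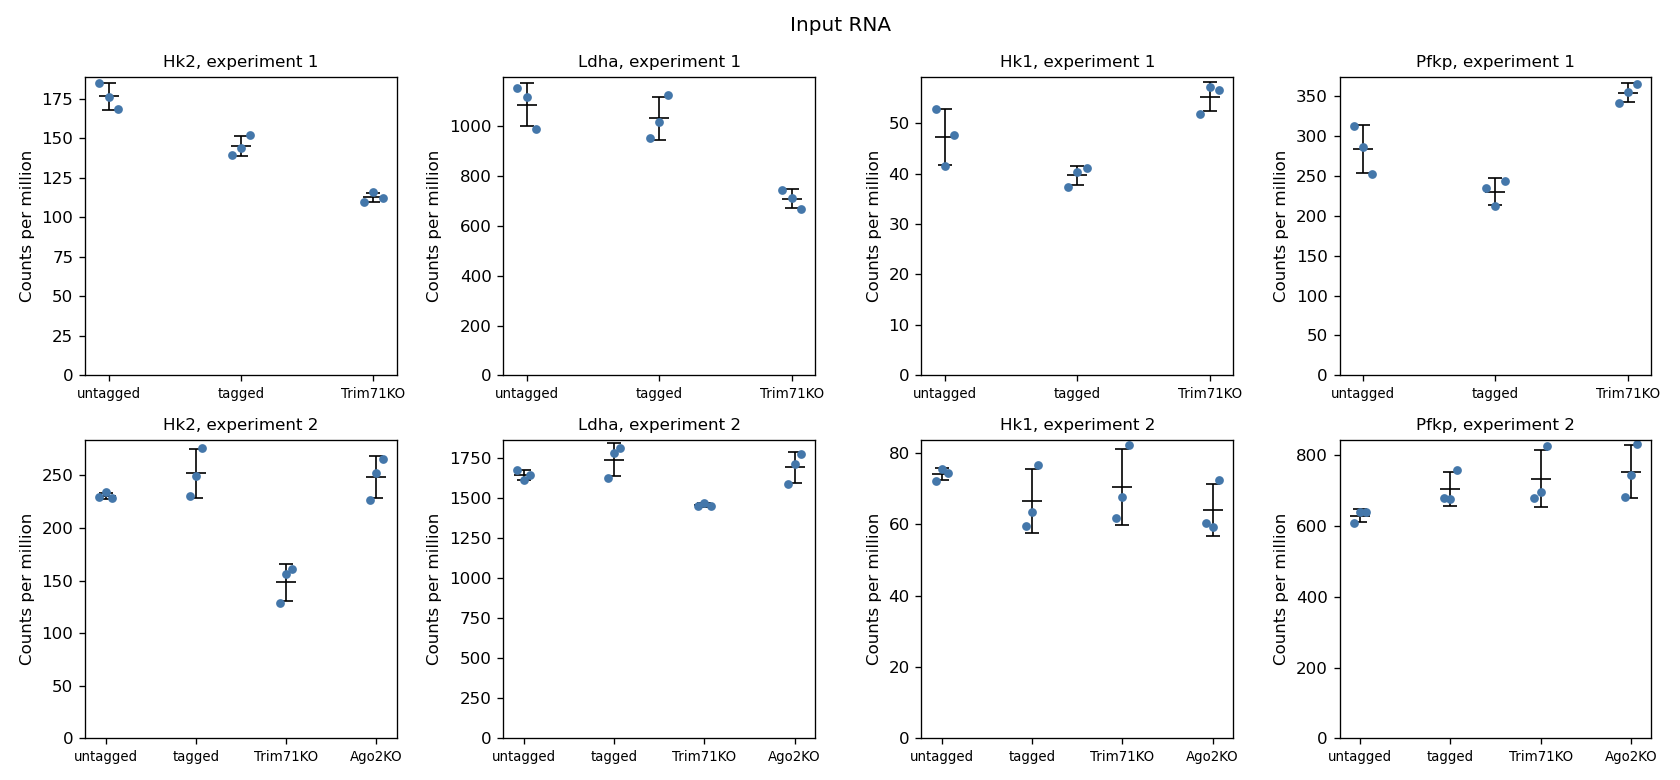
CPM in input RNA of Hk2, Ldha, Hk1 and Pfkp by genotype in experiment 1 (top) and experiment 2 (bottom); points are libraries, bars the mean and SD of 3, and the axes start at 0. Hk2 and Ldha are lowest in Trim71KO cells both times, and the means of Hk1 and Pfkp are highest there in experiment 1 alone.

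**Figure D5:**
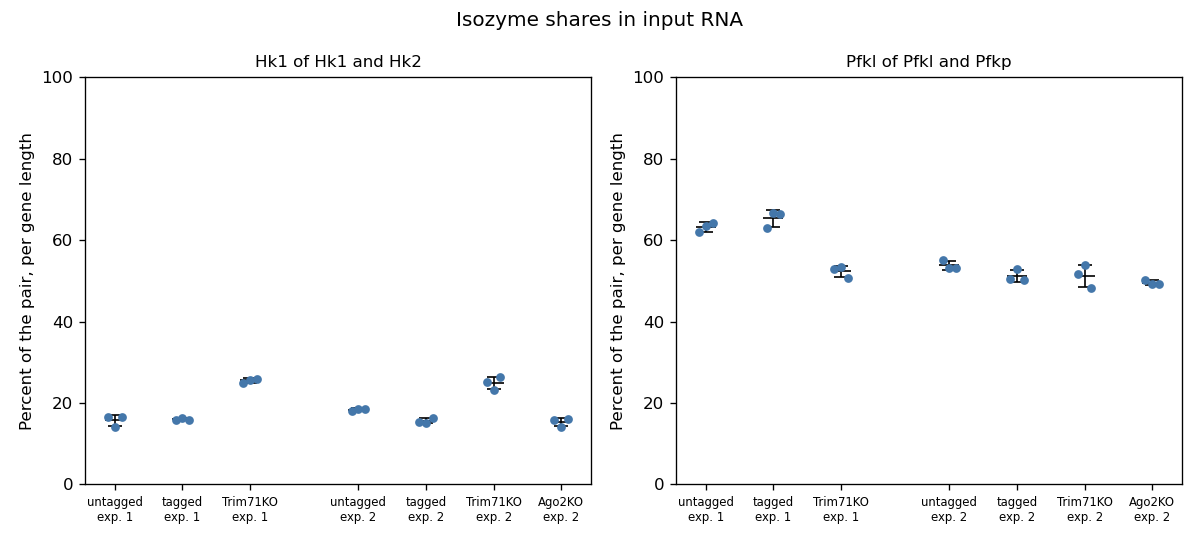
Share of Hk1 in Hk1 plus Hk2 (left) and of Pfkl in Pfkl plus Pfkp (right) in input RNA, as percent of counts per gene length; points are libraries and bars the mean and SD of 3. The Hk1 share is near 25 percent in Trim71KO cells of both experiments and between 14.1 and 18.6 percent in every other input library.

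Among other glycolysis enzymes, 3 of 17 were called lower and 0 higher in Trim71KO input of experiment 1, and 3 higher and 5 lower of 18 in experiment 2. Over all genes tested, 34.0% and 27.2% were called in either direction. Tpi1, which interconverts the products of the cleaved sugar, fell both times (-0.51, SE 0.12, and -0.30, SE 0.06), as did the enolase Eno3 (-1.10, SE 0.15, and -0.40, SE 0.13). Eno1 rose in experiment 2 (0.30, SE 0.08). Beyond the enzymes, Pfkfb3 fell in both experiments (-0.65, SE 0.20, and -0.35, SE 0.09), and of the pyruvate dehydrogenase kinases Pdk2 rose (1.28, SE 0.11, and 0.30, SE 0.10) and Pdk3 fell (-0.39, SE 0.10, and -0.46, SE 0.08). Of the transporters, 2 of 7 tested were called higher and 1 lower in experiment 1, and 1 of 8 higher in experiment 2. The glucose transporters Slc2a4 (1.29, SE 0.24) and Slc2a3 (0.42, SE 0.11) rose in experiment 1, and Mpc1 rose in experiment 2 (0.64, SE 0.11).

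No gene of the 10 was called in Ago2KO input, where 6.96% of all genes were called by edgeR, and 0 had an unadjusted p under 0.05; DESeq2 called 0 as well. The values ran from -0.13 (Pgk1, 95% interval -0.27 to 0.01) to 0.19 (Mbd2, 95% interval -0.12 to 0.49). The summed primitive endoderm markers were lower in Ago2KO input (10.1 to 11.5 CPM against 22.9 to 25.3 in tagged) and the trophoblast markers higher (125 to 144 CPM against 89.6 to 105). Most of the trophoblast sum was Tfap2c, at 57.5 to 130 CPM over the inputs of experiment 2. Krt8 reached at most 13.5, Krt18 10.5 and Hand1 0.83 CPM there, so the sum does not show a rise of the list as a whole. Among listed genes Ldhb (0.38, SE 0.06) and Mycn (0.59, SE 0.10) rose and Slc2a1 (-0.49, SE 0.12), a glucose transporter, fell. In the direct comparison of the 2 knockouts, with 28.4% of all genes called, 3 of the 10 were called: Hk2 was lower in Trim71KO input by -0.74 (SE 0.08, adjusted p 9.19e-08) and Ldha by -0.22 (SE 0.07, adjusted p 0.015), and Pdk1 was higher by 0.45 (SE 0.08, adjusted p 0.00019). The Ldha call was lost without Trim71KO input replicate 1, Ago2KO input replicate 2 or Ago2KO input replicate 3 (adjusted p 0.056 to 0.098). Pkm (0.17, adjusted p 0.052) and Pgk1 (0.17, adjusted p 0.079) were not called, but both were with RLE size factors, the replicate block within fraction, only the groups compared and DESeq2 (adjusted p 0.019 to 0.046), and Pkm also with no filter (adjusted p 0.034).

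The tag itself gave no call among the 10 in input. Tagged against untagged input called 10.6% of all genes in experiment 1, with 3 of the 10 at an unadjusted p under 0.05 in edgeR and 0 called by DESeq2, and 1.39% in experiment 2, with 0 of the 10 at an unadjusted p under 0.05 and 0 called by DESeq2. The largest value was that of Pfkp in experiment 1, -0.30 (SE 0.10, adjusted p 0.064), where it had 0.16 (SE 0.09, adjusted p 0.46) in experiment 2.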

How the data were processed

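Counts of reads per gene were used as deposited by the authors, 1 table an experiment. Per the labels' protocols, libraries came from a stranded total RNA kit. STAR 2.7.3a and bcl2fastq 2.20 and the builds GRCm38 and mm10 are listed in the submitters' processing notes. The counter, annotation and strand setting are not given in the sources used here. Gene lengths are the deposited column. The 42 RPKM columns of these tables were not used.

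Groups came from the sample titles. Counts were tested with edgeR 4.0.16 (R 4.3.3), using TMM, filterByExpr and the quasi-likelihood F test, with all groups of an experiment in 1 fit and each experiment apart; 18772 and 19778 genes were tested. SE is the log2 change over the square root of F, and 95% intervals are 1.96 SE. Reads carry no stated molecular identifiers. Fits were tested on simulated data. Named list genes are up to 2 called each way per comparison with mean log2 CPM of at least 2, and outside that rule, chosen after values were seen, are Eno1 and Mbd3 in experiment 2 enrichment, Tpi1 in experiment 2 input, Pdk2 and Pdk3 in enrichment, and Arnt and Hif1a outside their named comparisons, and Gapdh. Members and lists were chosen with earlier results of these data known. In experiment 2, same-numbered tagged and Trim71KO libraries deviated together (r 0.206 to 0.299 in input, 0.183 to 0.333 in IP); so did tagged input and tagged IP (0.104 to 0.183), and no other pair of groups did so in every pair of libraries. Alternatives were other scalings (RLE, library size), filters, replicate blocks, only the groups compared, DESeq2 1.42.0 and leaving out each library.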

Additional observations from a re-analysis of the deposited data

Results flagged for a closer look

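The knockouts of experiment 2 differed directly in 4 results: Pdk1 enrichment was higher in Trim71KO than in Ago2KO cells by 0.50 (log2, edgeR interaction), and in input RNA Hk2 differed by -0.74, Ldha by -0.22 and Pdk1 by 0.45.

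In 2 results all libraries moved one way in experiment 1 and the opposite way in experiment 2. For Pdk1 in Trim71KO against tagged input, the change in experiment 1 minus that in experiment 2 was -0.62. For Pfkp in tagged against untagged input it was -0.46. These differences between experiments were not tested.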

How the results depend on the processing

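Of 23 calls among the 10 genes, 19 were kept in every alternative; of 97 results without a call, 17 were called in at least 1 alternative, and 0 called values changed sign. With library sizes alone the count of the 10 genes called was 5 for tag-specific enrichment in experiment 2, 1 for Trim71-dependent enrichment in experiment 2 (489 genes in all, 370 higher and 119 lower) and 1 for tagged against untagged input in experiment 1. Replicate block within fraction gave 470 genes and block by culture 522 for Trim71-dependent enrichment in experiment 2, with 1 of the 10 in each; 4 of the 10 for tag-specific enrichment in experiment 2 (by culture); 2 for Trim71KO against Ago2KO enrichment (both blocks); and 5 for that comparison in input (within fraction), where RLE, only the groups compared and DESeq2 gave 5 too. The calls these blocks added were Ldha (either block) and Pgk1 (by culture) for tag-specific enrichment in experiment 2, Pdk1 for Trim71-dependent enrichment in experiment 2, Mbd2 for Trim71KO against Ago2KO enrichment, and Pkm and Pgk1 for that comparison in input; no other call among the 10 changed with a block. Apart from tagged and Trim71KO libraries, and tagged input and IP, of experiment 2, no pair of groups had r above 0.1 in every same-numbered pair. Some groups of experiment 2 still followed the number in part. Trim71KO and Ago2KO libraries correlated best with their own number in 6 of 6 cases in input and 5 of 6 in IP. Tagged and Ago2KO libraries did so in 4 of 6 in either fraction, and untagged and Trim71KO libraries in 0 of 6. Over all pairs of groups in 1 fraction, 14 of 36 and 38 of 72 correlated best with their own number. Only the groups compared gave 136 genes for Trim71-dependent enrichment in experiment 2 (DESeq2 548), 2 of the 10 for Trim71KO against Ago2KO enrichment, 2481 genes for Ago2KO input, and for tagged against untagged input 1 of the 10 in experiment 1 and 497 genes in experiment 2.

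Leaving out 1 library gave 2 to 4 of the 10 for tag-specific enrichment in experiment 2, 339 to 1435 genes and 0 to 6 of the 10 for Trim71-dependent enrichment in experiment 1, 98 to 562 and 0 to 1 in experiment 2, 0 to 1 of the 10 for Ago2-dependent enrichment, 1 to 2 for Trim71KO against Ago2KO enrichment, 3 to 5 for Trim71KO input in experiment 1, 774 to 922 genes for Ago2KO input, and for tagged against untagged input 722 to 3053 genes in experiment 1 and 154 to 195 in experiment 2. Mbd2, at 16.6 to 23.7 CPM in input, is the gene with the fewest reads here.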
